A study of Homo sapiens with 6 samples.

Results

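The MHC class II genes described here are CIITA, RFX5, RFXAP, RFXANK, HLA-DRA, CD74, HLA-DMA, HLA-DMB, CTSS and IFI30, 10 of the 32364 genes in an mRNA sequencing table of Kasumi-1 cells. They were chosen by symbol, with GENCODE release 29 linking symbols to Ensembl identifiers, and because class II genes were already known to be higher after I13 in these libraries. The difference between I13 and control is therefore given for them as a description, with values and errors and without a test. The Kasumi-1 line derives from acute myeloid leukemia of the M2 subtype and carries the t(8;21) translocation, which fuses RUNX1 (AML1) to RUNX1T1 (ETO), and I13 is a histone deacetylase inhibitor. Of the 6 libraries, 3 were of control cells (DMSO, per the methods) and 3 of cells given I13 at 0.5 µM, and both groups were collected after 48 h. All 6 libraries came from the same line, and the labels do not state whether replicates were separate cultures. The study describes its experiments in general as independent repeats, and its sequencing figures as representative of 3 independent experiments. It does not link these to single libraries, and p-values cover the spread between these libraries.

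MHC class II molecules are pairs of an alpha and a beta chain that carry peptides from the endosome to the cell surface for CD4+ T cells. The invariant chain CD74 fills their groove until endosomal proteases, cathepsin S (CTSS) among them, cut it away. HLA-DM, a dimer of HLA-DMA and HLA-DMB, then exchanges the remaining piece for other peptides, HLA-DO restrains HLA-DM, and the thiol reductase encoded by IFI30 (GILT) opens disulfide bonds of antigens. Transcription of these genes is known to depend on a complex on the X and Y boxes of their promoters, in which RFX5, RFXAP and RFXANK bind the X box, NF-Y binds the Y box, and the coactivator CIITA is recruited without binding DNA itself. The X and Y boxes are shown because they are the DNA on which these regulators meet.

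Promoter windows of 300 bases, 250 before to 50 after each annotated start, were taken from RefSeq on GRCh38.p14, and 7 of the 10 genes had one. CIITA, HLA-DRA and CTSS had none. The letters searched on both strands for the X box core were AG, any 2 bases, AC, any base and GATG, in that order. For the Y box they were ATTGG (the reverse complement of CCAAT), and for the core of a cyclic AMP response element TGACG. No overlap of matches between motifs was required or removed. The X box core was present in 0.817% of 35116 windows, the Y box in 34.6% and the response element core in 24.6%. An X box core followed on the same strand by a Y box, with first bases 28 to 38 bases apart, occurred in 6 windows (0.0171%), those of HLA-DMA, HLA-DRB1, HLA-DRB5, HLA-DQB1, MR1 and LOC105371332. Of the 10 genes, HLA-DMA and HLA-DMB held an X box core, and 5 held a Y box. Of the 10 other class II genes that were searched, the chains and HLA-DO, 3 held an X box core and 9 a Y box. The stretches below run 5′ to 3′ along the gene, with capitals marking the X box core and the Y box or its complement.
HLA-DMA (chr6:32953122-32953230, minus strand): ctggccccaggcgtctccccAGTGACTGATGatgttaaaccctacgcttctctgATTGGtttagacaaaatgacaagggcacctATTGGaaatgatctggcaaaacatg
HLA-DMB (chr6:32941029-32941136, minus strand): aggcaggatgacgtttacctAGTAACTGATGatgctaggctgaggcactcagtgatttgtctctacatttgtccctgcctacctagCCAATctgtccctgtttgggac
HLA-DRB1 (chr6:32589870-32589947, minus strand): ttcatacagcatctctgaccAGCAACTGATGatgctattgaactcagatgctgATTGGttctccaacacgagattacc
HLA-DQB1 (chr6:32666697-32666798, minus strand): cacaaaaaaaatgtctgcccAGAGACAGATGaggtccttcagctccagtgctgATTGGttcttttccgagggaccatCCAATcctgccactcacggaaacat
CD74 (chr5:150412939-150412983, minus strand): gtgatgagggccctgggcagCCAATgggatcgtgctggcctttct

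In HLA-DMA the X box core began 113 bases before the start and was followed by a Y box after 34 bases. In HLA-DRB1, HLA-DRB5 and HLA-DQB1 that distance was 33 bases. HLA-DMB held an X box core 88 bases before its start, and its nearest Y box letters lay on the other strand, 22 bases before the start. CD74 held no match to the X box core in its window and 1 Y box on the other strand, 53 bases before the start. A match describes the letters in the window and is not a measured site of binding. The letters were searched without mismatches, so a window without a match can hold a box that differs from them.

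**Figure D1:**
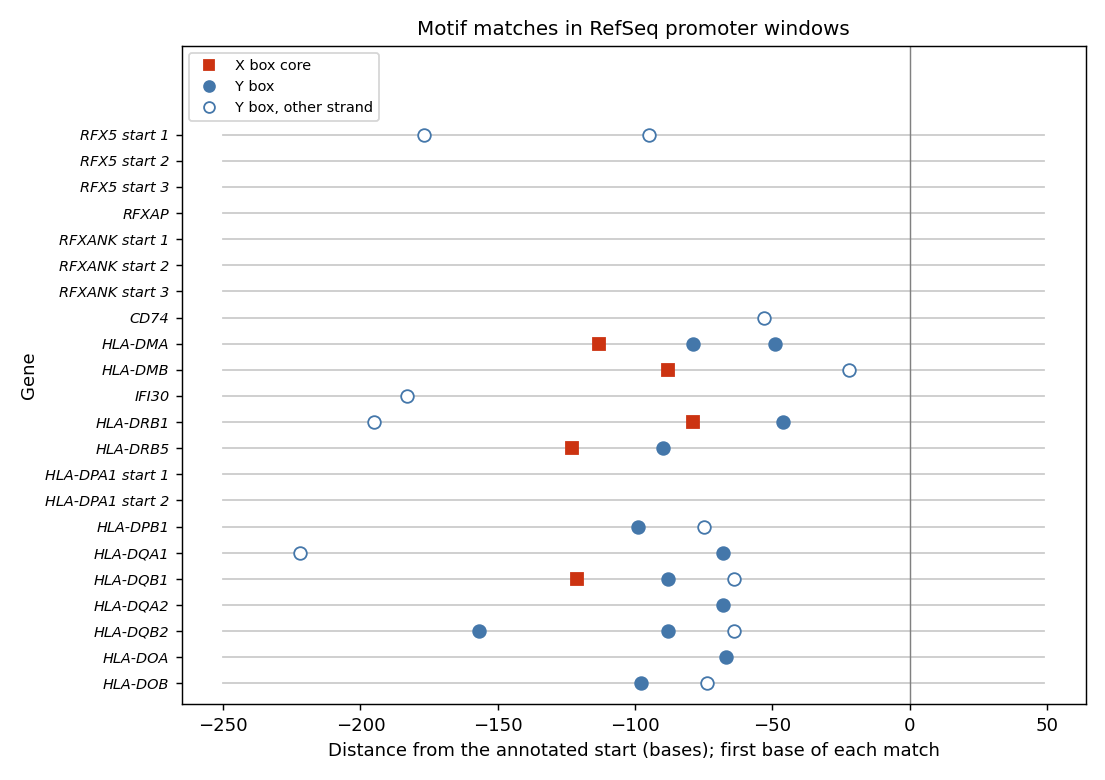
Matches to the X box core (squares) and Y box (circles, open on the other strand) along each promoter window, with the distance of the first base from the annotated start in bases. Only HLA-DMA, HLA-DMB, HLA-DRB1, HLA-DRB5 and HLA-DQB1 hold a match to the X box core. In HLA-DMB that match is not followed by a Y box on the same strand.

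The depth was 16566742 to 17221345 fragments in the control libraries and 15281052 to 16682550 in the I13 libraries. Values are FPKM, the fragments on a gene scaled by its exon length and by the depth of the library. The libraries held the markers of the line, with means of 11485 FPKM for MPO, 221 for KIT, 42.3 for CD34, 12.3 for CD33 and 13.5 for RUNX1T1, the fusion partner. A principal component analysis of 4133 genes placed a pair of libraries, I13 replicate 2 and control replicate 3, away from the remaining 4 on the first component, with 43.3% of the variance. The second component, with 20.5%, separated I13 from control. For CIITA, HLA-DRA, CD74, HLA-DMA and CTSS, fold changes are given with and without that pair. The same holds for the number of the 10 genes whose groups did not overlap.

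Most of the regulatory and loading parts were present as mRNA, at very unequal levels. By mean FPKM over the 6 libraries the order was CD74 (30.9), RFXANK (22.8), RFX5 (17.6), CTSS (7.83), RFXAP (3.61), HLA-DRA (2.34), HLA-DMA (0.515), CIITA (0.336), HLA-DMB (0.0262) and IFI30 (0). Neighbours in this order had ranges that overlapped for 3 pairs, namely RFXAP and HLA-DRA, HLA-DMA and CIITA, and HLA-DMB and IFI30. Within single libraries the gene of higher mean was above its neighbour in 6 of 6 libraries, except HLA-DMB, which was above IFI30 in 5. Among protein-coding genes of the table CD74 lay at percentile 92.9, RFXANK at 89.6, RFX5 at 86.2, HLA-DRA at 49.3 and CIITA at 34.1. Of the 10 genes, 9 were above 0 in at least 1 library, 8 passed the minimum mean of 0.1 FPKM, and 6 had a mean of at least 1 FPKM. These levels are per length of all annotated exons. Set to the length of the main coding transcript, CD74 was at 100.4, RFXANK at 47.1, RFX5 at 34.4, HLA-DMA at 1.16 and CIITA at 1.05 FPKM, and the order was kept.

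**Figure D2:**
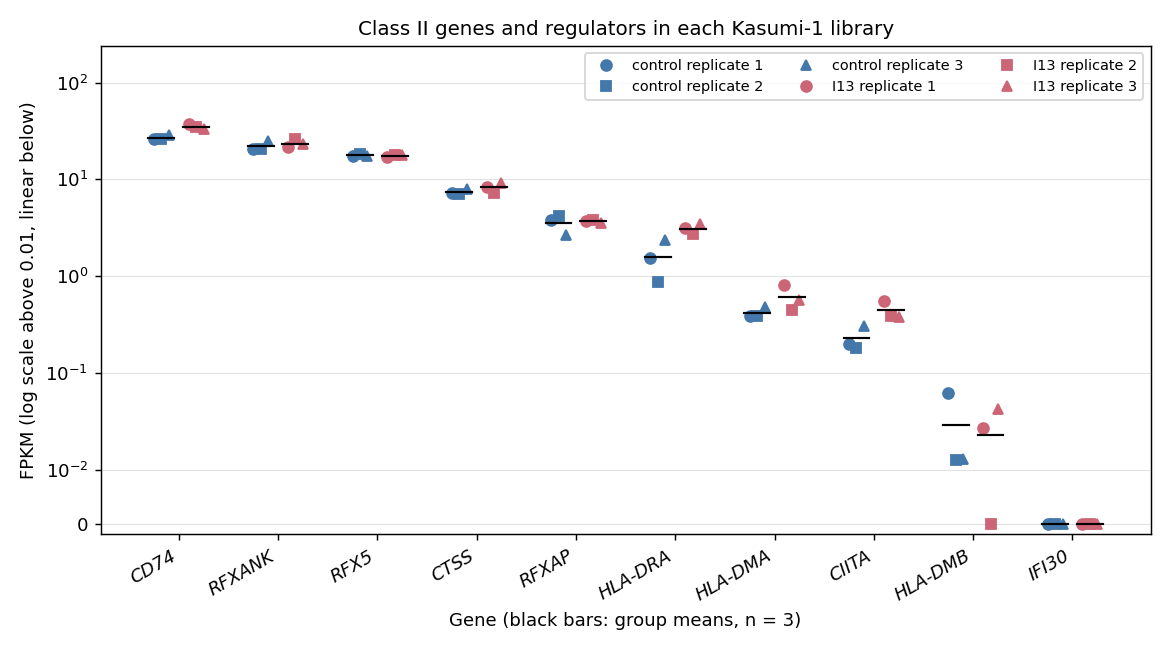
FPKM of the 10 genes in each library, ordered by mean level, on an axis that is logarithmic above 0.01 and linear below. Circles, squares and triangles are replicates 1, 2 and 3 of control (blue) and I13 (red), and black bars are group means, which run from 34.9 FPKM for CD74 in I13 down to 0 for IFI30.

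After I13 the class II gene HLA-DRA, its coactivator CIITA and the invariant chain CD74 were each higher in all 3 I13 libraries than in any control library. The 3 RFX subunits differed by less than their standard error between the groups. Of the 10 genes, 3 had groups that did not overlap, all with I13 higher, beside 4.88% of the 18726 genes tested in that direction and 4.64% in the other. The rule that chose the genes used this difference, so nothing is read from that count or from the median that follows. The median log2 fold change, on log2(FPKM + 0.1), of the 8 genes past the minimum mean was 0.26, beside 0.01 over all genes tested, and 7 of the 9 genes above 0 had a higher mean in I13. In bulk RNA, more cells with a transcript and more transcript per cell cannot be told apart.

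CIITA (ENSG00000179583, chromosome 16, 10866222 to 10943021, plus strand, GRCh38) is the master coactivator of the class II genes. Its level was 0.20, 0.181 and 0.304 FPKM in the control libraries and 0.559, 0.393 and 0.379 FPKM in the I13 libraries, which rest on 45 to 73 and on 84 to 129 fragments. The lowest I13 library was above the highest control library, control replicate 3. The means were 0.228 ± 0.0661 and 0.443 ± 0.10 FPKM (SD, n = 3 each), a ratio of 1.94, and the log2 fold change on log2(FPKM + 0.1) was 0.73 (SE 0.30). Without control replicate 3 and I13 replicate 2 it was 0.95, and within that pair alone it was 0.29. At this low level the fold change depends on the value added before the logarithm, and was 0.23 with 1 FPKM and 0.94 with 0.01. The deposited values imply an exon length of 14503 bases for CIITA, where GENCODE 29 gives 20757, and 11.5% of its exon bases there are shared on the same strand with AC133065.3, which held 3 to 11 fragments in a library. None of the bases of its main coding transcript are shared on the same strand. On either strand, exons of AC133065.1, DEXI and AC133065.3 cover 23.4% of its exon bases. It is not stated whether fragments were counted by strand.

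RFX5 (ENSG00000143390, chromosome 1, 151340640 to 151347357, minus strand) encodes the DNA-binding subunit of the RFX complex. It was at 17.2, 18.4 and 17.5 FPKM in control and at 17.1, 17.6 and 18.0 FPKM in I13 libraries. The ranges overlapped nearly in full, and the log2 fold change was -0.01 (SE 0.052). RFXANK (ENSG00000064490, chromosome 19, 19192229 to 19201869, plus strand), the ankyrin repeat subunit, was at 20.5, 20.8 and 25.2 FPKM in control and at 21.4, 25.8 and 23.1 FPKM in I13 libraries, a log2 fold change of 0.08 (SE 0.10). The highest library of each group was one of the pair that stood apart. On the opposite strand, exons of BORCS8 and NR2C2AP cover 23.3% of the exon bases of RFXANK, and it is not stated whether fragments were counted by strand.

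RFXAP (ENSG00000133111, chromosome 13, 36819224 to 36829104, plus strand), the third subunit, was the least abundant of them. It was at 3.80, 4.14 and 2.67 FPKM in control and at 3.68, 3.80 and 3.55 FPKM in I13 libraries. The groups overlapped, with control replicate 3 the lowest of all, and the log2 fold change was 0.08 (SE 0.16). Without control replicate 3 it was -0.11. RFX5 exceeded RFXAP by 4.45 to 6.55 times in FPKM and RFXANK exceeded RFX5 by 1.13 to 1.46 times across libraries, so the 3 subunits were not at equal mRNA levels in any library. In each library all 3 lay above CIITA.

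HLA-DRA (ENSG00000204287, chromosome 6, 32439842 to 32445046, plus strand) encodes the alpha chain of HLA-DR. It was at 1.54, 0.865 and 2.36 FPKM in control and at 3.14, 2.72 and 3.43 FPKM in I13 libraries, from 19 to 50 and from 58 to 67 fragments. All I13 libraries were above all control libraries, and the control libraries were the more spread. The means were 1.59 ± 0.747 and 3.09 ± 0.357 FPKM (SD, n = 3 each), a ratio of 1.95, and the log2 fold change was 1.02 (SE 0.32). Control replicate 2, the lowest, carried much of it, since the log2 fold change was 0.66 without that library. Between I13 replicate 2 and control replicate 3 alone it was 0.20, and among the other 4 libraries it was 1.42.

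CD74 (ENSG00000019582, chromosome 5, 150401637 to 150412929, minus strand) was the most abundant of the 10 and had the most evenly separated groups. It was at 26.0, 26.1 and 28.7 FPKM in control and at 37.1, 34.4 and 33.3 FPKM in I13 libraries, each from at least 1424 fragments. The 3 I13 values lay above all control values. The means were 26.9 ± 1.53 and 34.9 ± 1.97 FPKM (SD, n = 3 each), a ratio of 1.30 and a log2 fold change of 0.37 (SE 0.064), which was 0.33 to 0.42 with each library left out in turn. CD74 exceeded HLA-DRA in FPKM by 12.2 to 30.2 times in control and by 9.72 to 12.6 times in I13 libraries. These ranges overlapped through control replicate 3. The size of the ratio depends on the exon length used, since per length of the main transcript CD74 was at a mean of 100.4 and HLA-DRA at 2.34 FPKM.

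**Figure D3:**
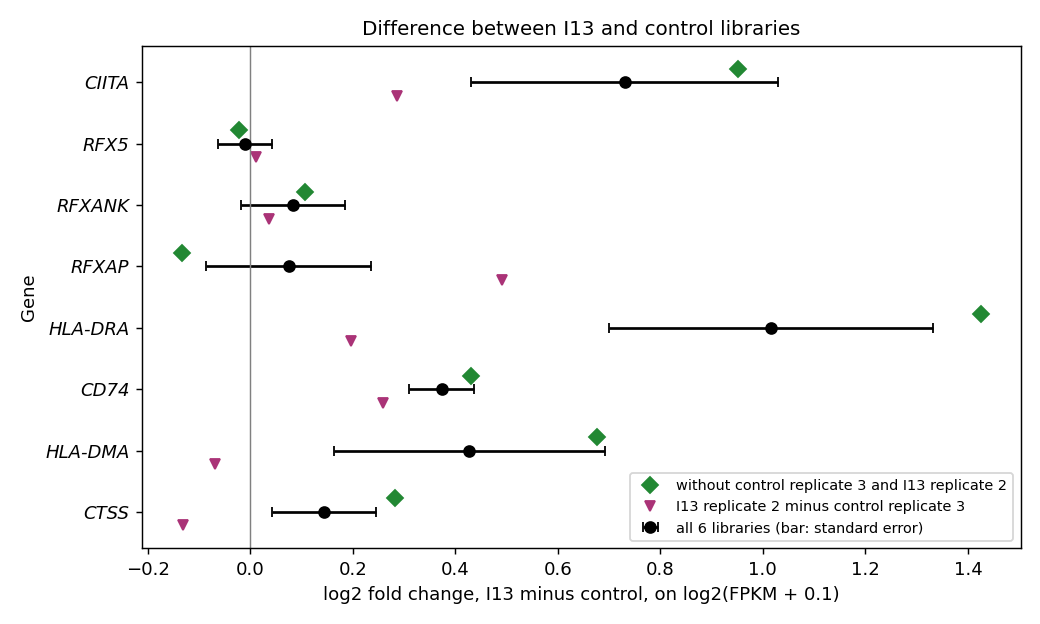
The log2 fold change of the 8 genes past the minimum mean, with standard errors as bars (black), beside the value without control replicate 3 and I13 replicate 2 (green) and the difference within that pair (purple). HLA-DRA is at 1.02, 1.42 and 0.20 on the 3 readings, and CD74 at 0.37, 0.43 and 0.26.

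The 4 genes for loading and processing did not separate the groups over all 6 libraries. HLA-DMA (ENSG00000204257, chromosome 6, 32948613 to 32969094, minus strand) was at 0.390, 0.391 and 0.476 FPKM in control and at 0.818, 0.449 and 0.568 FPKM in I13 libraries, from 17 to 33 fragments. I13 replicate 2 lay below control replicate 3, and I13 replicate 1 was far above the rest. The log2 fold change was 0.43 (SE 0.26), with 0.23 without I13 replicate 1 and 0.68 without the pair that stood apart. HLA-DMB (ENSG00000242574, chromosome 6, 32934629 to 32941070, minus strand), the partner chain, had 5, 1 and 1 fragments in control and 2, 0 and 3 in I13 libraries. Its level was at most 0.0624 FPKM, and the ratio of I13 to control was 0.760 (exact 95% interval for counting error 0.190 to 2.78). Per exon length HLA-DMA had 19.6 times the fragments of HLA-DMB over all libraries (exact 95% interval 10.8 to 38.9), and 13.3 times per length of the main transcript. The annotated gene AL645941.2 shares 15.5% of the main transcript of HLA-DMA and 31.4% of that of HLA-DMB on the same strand, and what this does to the counts was not tested.

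CTSS (ENSG00000163131, chromosome 1, 150730196 to 150765957, minus strand), the protease of the last step of CD74 removal, was at 7.22, 7.11 and 7.91 FPKM in control and at 8.24, 7.22 and 9.26 FPKM in I13 libraries. The groups overlapped through I13 replicate 2, and the log2 fold change was 0.14 (SE 0.10), with 0.06 without I13 replicate 3, 0.24 without I13 replicate 2 and 0.28 without the pair that stood apart. Once that pair was left out, 7 of the 10 genes had groups that did not overlap, 6 with I13 higher and RFXAP with I13 lower, beside 21.0% and 16.9% of all genes tested in these directions.

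IFI30 (ENSG00000216490, chromosome 19, 18173162 to 18178117, plus strand) had 0 fragments in every library. The limit that a count of 0 allows, 3 fragments over all 6 libraries, would be 0.0122 FPKM per length of all annotated exons. The gene cannot be called absent from this. The annotated gene AC007192.1 lies over it on the same strand and shares 40.2% of its exon bases and 87.9% of its main coding transcript. AC007192.1 itself held 1 fragment, in I13 replicate 2. Among 240 protein-coding genes with at least 85% of the main transcript shared in this way, 53.3% were under 0.1 FPKM and 10.8% were at 0 in every library, beside 27.0% and 8.90% of the 14494 genes with none shared. The part of this sharing in the value of IFI30 was not tested.

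The partner chains of HLA-DRA were close to the limit of detection. HLA-DRA held 292 fragments over the 6 libraries, and the other 6 class II chain genes of the table held 50 in all. HLA-DRB1, the main DR beta chain, had 0, 1 and 3 fragments in control and 2, 0 and 4 in I13 libraries. Per exon length HLA-DRA had 28 times the fragments of HLA-DRB1 (exact 95% interval for counting error 15.0 to 59.1). HLA-DRB1 is highly polymorphic and near-identical to other DRB genes, so its count, and that of HLA-DRB5, is uncertain in a way that the interval does not cover.

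HLA-DPA1 had 1, 0 and 1 fragments in control and 5, 7 and 2 in I13 libraries, a ratio of 7.45 (exact 95% interval 1.71 to 67.5). It was the only one of the 8 chain and HLA-DO genes of the table whose groups did not overlap. Of the genes tested, 4.88% did not overlap in that direction and 4.64% in the other. Those shares are over genes with a mean of at least 0.1 FPKM, and may not hold at counts this low. HLA-DPB1, the partner of HLA-DPA1, had 6, 2 and 4 fragments in control and 4, 0 and 3 in I13 libraries, a ratio of 0.621. HLA-DQB1 had 0 to 2 fragments in a library. HLA-DRB5, HLA-DQA1 and the HLA-DO alpha chain HLA-DOA had 0 in every library, with limits of 0.0241, 0.00438 and 0.00757 FPKM over all libraries. These limits are per length of all annotated exons. For HLA-DQA1 that length is 6927 bases and its main transcript has 1060, so its limit is higher per main transcript length. HLA-DOB had 1 fragment in 1 library of each group. Expression of HLA-DQA2 and HLA-DQB2 was not analysed here. None of these genes reached the minimum mean of 0.1 FPKM, so none was tested.

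**Figure D4:**
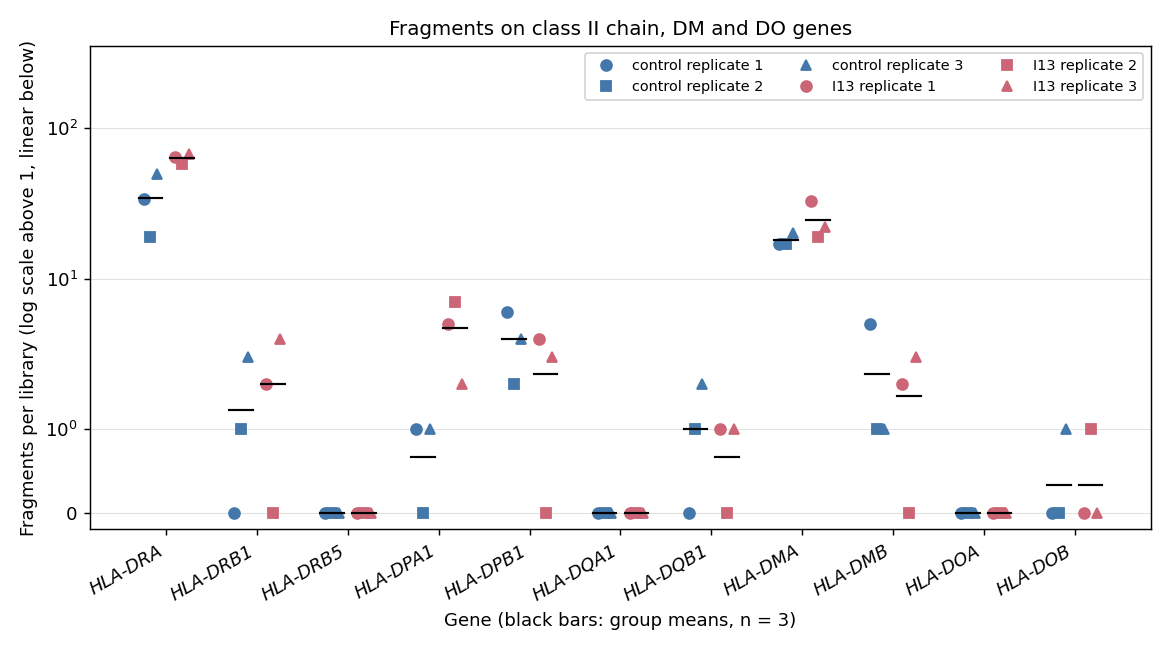
Fragments per library on the class II chain, HLA-DM and HLA-DO genes, on an axis that is logarithmic above 1 and linear below, with black bars at group means. HLA-DRA holds 19 to 67 fragments and HLA-DMA 17 to 33, while every other gene shown holds at most 7.

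Of 47 other genes of the class II pathway, 46 were in the table and 38 of these had a mean of at least 1 FPKM. The 43 that were tested had a median log2 fold change of -0.03, with 14 above 0 and 29 below. Over all 18726 genes tested, 9702 were above 0 and 9024 below. The 43 were tested with limma, a linear model fitted to all genes. None passed an unadjusted p under 0.05 with a log2 fold change of 0.58 or more in size, beside 1.17% of genes tested that were higher, 1.2% that were lower and 2.38% in both directions. None passed an adjusted p of 0.05 with that fold, where 0.0% of all genes tested lay. At the unadjusted p alone 1 was higher and 1 lower, beside 2.55% and 2.59% of all genes tested, or 5.14% together. The higher one was CTSF, a lysosomal cysteine protease that can cut the invariant chain, at 11.3 ± 0.328 FPKM in control and 14.5 ± 0.491 FPKM in I13 libraries (log2 fold change 0.37, SE 0.055, limma adjusted p = 0.321). Its values were 11.5, 10.9 and 11.3 FPKM in control and 14.3, 15.1 and 14.2 FPKM in I13 libraries, so that it separated the groups in the pair that stood apart as well. The lower one was CST3, the cysteine protease inhibitor cystatin C, at 18.9 ± 1.19 FPKM in control and 16.5 ± 1.55 FPKM in I13 libraries (log2 fold change -0.20, SE 0.083, limma adjusted p = 0.947).

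The partners of the RFX complex were present in both groups. Among enhanceosome partners NFYA, the NF-Y subunit A, had the highest mean at 37.8 FPKM (38.2 ± 0.750 in control, 37.5 ± 0.411 in I13). A log2 fold change below 0 was found for 4 of 5 partners, beside 9024 of all 18726 genes tested. Among coactivators SMARCA4, the BRG1 ATPase, was highest at 24.9 FPKM. Of the other RFX factors RFX7 was highest at 7.71 FPKM, although per length of the main transcript RFX2, at 9.70, lay above RFX7, at 7.83 FPKM. The 4 that were tested had log2 fold changes between -0.30 and -0.04. Among 11 genes upstream of CIITA, from the interferon gamma receptor to PU.1, SPI1 (PU.1) was highest at 109.6 FPKM. Of the 11, 10 had a log2 fold change below 0, beside 9024 of all 18726 genes tested. None of the 11 had an unadjusted p under 0.05. IRF8 alone of the 11 had groups that did not overlap, with I13 lower, beside 4.64% of genes tested. It was at 1.31 ± 0.281 FPKM in control and 0.957 ± 0.106 FPKM in I13 libraries.

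Of the other endosomal proteases CTSZ was highest, at 130.6 FPKM. Of 9 tested, 7 had a log2 fold change above 0, beside 9702 of all 18726 genes tested. The median of the 9 was 0.06. Besides CTSF, CTSH had groups that did not overlap, at 0.845 ± 0.121 FPKM in control and 1.11 ± 0.0261 FPKM in I13 libraries. Over the whole pathway list groups did not overlap for 2 genes with I13 higher and 2 with I13 lower. Of all genes tested these shares were 4.88% and 4.64%. CTSS was at 0.478 to 0.698 times the level of CTSF in all libraries. MARCH8, a ubiquitin ligase that can turn over class II molecules, was at a mean of 7.87 FPKM and CD83 at 7.79 FPKM, with CD83 the higher in I13 replicate 2 and control replicate 2. CD44, a partner of CD74 at the cell surface, was at 28.8 FPKM. By voom, a form of limma for counts that was run on fragments recovered from the FPKM, 4 of the 43 pathway genes (CTSF, CTSH, IRF8 and CST3) had an unadjusted p under 0.05, beside 5.36% of 13814 genes, and none an adjusted p under 0.05, beside 0.0362%.

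**Figure D5:**
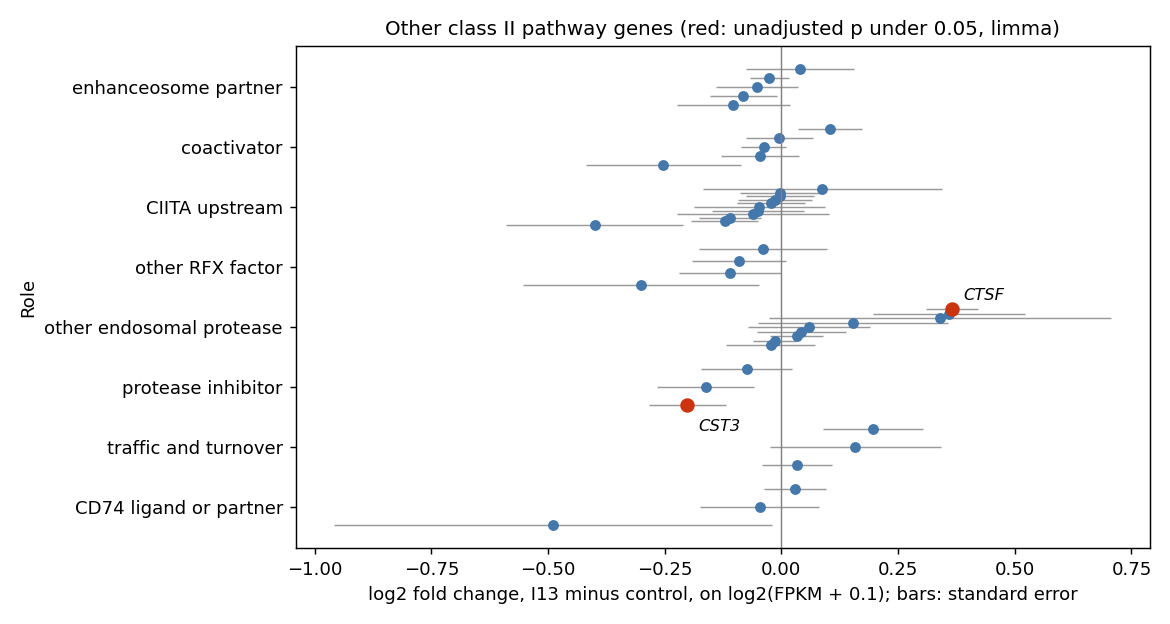
The log2 fold change with its standard error of the 43 tested pathway genes other than the 10, grouped by role, with unadjusted p under 0.05 in red. CTSF, at 0.37, is the only red point above 0 and CST3, at -0.20, the only one below.

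Markers of the immune cells that are known to carry class II, and of T cells, were examined in the same libraries. Of 5 dendritic cell markers in the table, CD1C, FCER1A and CD1A were at 0 in every library, and the list summed to at most 0.0349 FPKM in a library. Of 5 monocyte or macrophage markers, CD163, FCGR3A and C1QA were at 0 and CD14 had fragments in 1 library, while CSF1R was at 6.66 ± 0.458 FPKM in control and 4.84 ± 0.496 FPKM in I13 libraries (log2 fold change -0.46, unadjusted p under 0.05, limma adjusted p = 0.583). That list therefore summed to 6.13 to 6.97 FPKM in control and 4.27 to 5.21 FPKM in I13 libraries. All 5 B cell markers in the table were above 0, and B lineage genes are known to be expressed in leukemias with t(8;21). They summed to 5.61 to 6.06 FPKM in control and 5.98 to 7.13 FPKM in I13 libraries, with CD79B at a mean of 3.19 and CD79A at 1.66 FPKM. PAX5, the B lineage factor, named here after its values were seen, was at 0.561 ± 0.163 FPKM in control and 0.949 ± 0.0880 FPKM in I13 libraries (log2 fold change 0.69, unadjusted p under 0.05, limma adjusted p = 0.890). The 6 T cell markers summed to 0.387 to 0.510 FPKM in control and 0.207 to 0.268 FPKM in I13 libraries, with CD3G and TRAC at 0. CD3D, also named after its values were seen, had 5, 6 and 5 fragments in control and 2 in each I13 library (log2 fold change -0.90, unadjusted p under 0.05, limma adjusted p = 0.890), counts that are close to the limit of 3. The part of these markers in the values of HLA-DRA, CIITA and CD74 was not tested.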

How the data were processed

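Total RNA of Kasumi-1 cells was made into libraries with a stranded TruSeq mRNA kit. The authors deposited FPKM values per Ensembl gene for 6 libraries. The submitters' processing notes name Trimmomatic, HISAT2, Cufflinks and HTSeq and the build hg38, and for the strand setting and the annotation of the counting nothing was given in the sources used here. Of 27002 genes above 0 with a GENCODE 29 exon length, 25773 (95.4%) gave whole fragments in all libraries within 0.01. For the other genes fragments were read from the step that their values share. Intervals and limits of 3 fragments cover counting error only.

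Log2 fold changes and standard errors came from limma 3.58.1 in R 4.3.3 on log2(FPKM + 0.1), with a variance trend, over 18726 genes (mean FPKM of 0.1 or more), adjusted by the Benjamini-Hochberg method. The script was tested on simulated data with known changes. Tables and figures used Python 3.11.15. Members and lists were chosen with earlier results of these data known. Named genes were all members, all class II chains, pathway genes with an unadjusted p under 0.05 or the highest mean of their role, markers of the line or with a mean of at least 1 FPKM, and, for 3 members, the 3 genes of most similar profile. PAX5, CD3D, CD83, RFX2, IRF8, CTSH, markers at or near 0 and genes that share exons or motifs with members were named after their values were seen. Alternatives were other pseudocounts, filters, scalings, each library left out, that pair of libraries left out, a replicate block, no trend, a fold threshold of log2 1 and voom. Main transcript lengths were added after seeing the data.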

Additional observations from a re-analysis of the deposited data

How the results depend on the processing

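Over all genes, 220 were higher and 225 lower at the unadjusted p and fold threshold. A pseudocount of 1 gave 72 and 62, a minimum mean of 1 FPKM 59 and 60, voom 110 and 94, and a log2 fold threshold of 1 left 152 and 147. The count at the adjusted p and fold threshold was 0, with 963 genes at an unadjusted p under 0.05, and was 9 without the variance trend and 4 by voom. No pathway gene passed the unadjusted p with the fold threshold under any of 16 alternatives, and the chain genes were under the minimum mean. CST3 lost its unadjusted p under 0.05 in 8 of 16 alternatives, PAX5 in 4 of 15 and CD33 in 1 of 16, while CTSF and CSF1R kept theirs. CD33 was at 11.5 ± 0.613 FPKM in control and 13.2 ± 0.483 FPKM in I13 libraries. Its log2 fold change was 0.20 (limma adjusted p = 0.890). Of the 5 markers of the line it alone had an unadjusted p under 0.05 by limma. CTSF had an unadjusted p of 0.0002 to 0.0032 and an adjusted p of 0.13 to 1.00.

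Members with groups that do not overlap numbered 3, and 7 without control replicate 3 and I13 replicate 2 together. With each library left out in turn they numbered 3 to 6, 6 without control replicate 3 and 5 without I13 replicate 2. Per main transcript length the mean FPKM was 1.05 for CIITA, 34.4 for RFX5, 47.1 for RFXANK, 100.4 for CD74, 1.16 for HLA-DMA and 0.0872 for HLA-DMB. Replicate numbers showed no clear pairing of the samples. Deviations of same-numbered libraries correlated at 0.08, -0.07 and -0.02, and not every library correlated best with its own number. Control replicate 2 with I13 replicate 3 gave 0.08, and control replicate 3 with I13 replicate 2 gave 0.07. With 3 libraries a group, these correlations cannot decide whether samples were paired. With the replicate block 263 genes were higher and 243 lower. Depth limits HLA-DMB and the class II chains other than HLA-DRA, at 0 to 7 fragments a library.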

Other observations

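The genes whose profile over the 6 libraries was most like that of each of 3 class II members were found among 11500 genes with a mean of at least 1 FPKM, by the root mean square difference of log2(FPKM + 0.1) values centred on their mean. This is a description over 6 libraries that share the separation of the groups. For CIITA they were MPZL1 (0.15), AL035446.1 (0.15) and HLA-C (0.17), a class I chain that was at 6.95, 7.0 and 8.45 FPKM in control and at 11.6, 9.35 and 9.32 FPKM in I13 libraries. For CD74 they were MFAP2 (0.03), ZNF668 (0.04) and ANPEP (0.04), and ANPEP encodes the myeloid surface protein CD13, at 22.9, 22.7 and 26.4 FPKM in control and at 32.0, 29.1 and 30.6 FPKM in I13 libraries. For HLA-DRA they were AC090948.2 (0.21), RNA5-8SN2 (0.21) and PMS2P4 (0.28), of which RNA5-8SN2 is a ribosomal RNA gene and PMS2P4 a pseudogene.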
